A study of Mus musculus with 6 samples.

Results

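The 55 genes described here encode the machinery of mitosis. They were chosen by symbol, as a module of mitotic cyclins, kinases, checkpoint and kinetochore proteins, kinesins, spindle and chromosome proteins and cytokinesis factors, out of 55487 genes in the deposited table. All 55 symbols were found. All 55 also passed the filter on low values, so no member is left out of the counts below. The libraries were of messenger RNA from BMDC (bone marrow-derived dendritic cells, grown out of mouse marrow in culture). One group is labelled as treated with NanoCa, a lipid nanoparticle that contains calcium, per the series title, and the other as Mock, with no treatment. The labels give 3 samples per group, from mice labelled as female and 4 to 8 weeks old, 1 shared batch date, and culture in DMEM with serum. The protocol names 100 μM NanoCa on the Mock samples too, so what Mock cells received is uncertain, and the treatment label was followed. No genotype beyond sex and age, no exposure time and no number of animals or cultures is given in the labels.

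A cell that divides builds up cyclin B, which activates the kinase Cdk1 and starts mitosis. Chromosomes are then condensed, attached to the spindle through kinetochores, held by the spindle checkpoint until all are attached, and released when the anaphase-promoting complex (APC/C) marks cyclin B and securin for destruction. Most of these genes are transcribed late in the cycle, through a promoter element named the cell cycle genes homology region (CHR), bound by the DREAM and MuvB complexes, and through CCAAT boxes, bound by NF-Y. Dendritic cells in tissue mostly derive from dividing precursors, and marrow cultures hold dividing cells as well as mature ones, so the level of these transcripts in a culture is commonly read as a sign of proliferation.

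In each group the column of replicate 3 was a constant multiple of the mean of replicates 1 and 2, so 2 libraries per group were used. Library totals, recovered from the steps of the FPKM values (reads scaled by gene length and library total), were 22793565 to 31131990 reads. Nothing in the labels says that the replicates came from separate cultures or animals, so the p-values here reflect the spread between libraries alone, and that spread may be technical. The groups also differed in sex-linked transcripts. Xist, the transcript of the inactive X chromosome, had 14413 and 13639 reads in NanoCa and 1 read in each Mock library, and the Y-linked gene Ddx3y was found in all 4 libraries, at 14.2 and 12.9 FPKM in NanoCa and 34.5 and 32.5 in Mock. These values go against the label of female mice for all samples, in Mock by both genes and in NanoCa by Ddx3y. Treatment and the source of the cells therefore cannot be told apart.

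Promoter sequences were examined because the members share a known promoter architecture. The genes were chosen by symbol and not by promoter letters. This architecture is known from late cell cycle genes such as these, so the shares of its letters are no result about NanoCa. RefSeq promoter windows of 300 bases (GRCm38.p6, 250 bases before the start site and 50 from it on) were found for 46 of the 55 genes, in 49 windows. The other 9 members are Tpx2, Smc4, Spc24, Aurkb, Ccna2, Stmn1, Kif20a, Foxm1 and Incenp. Shown here are the 5 members with the lowest level left in NanoCa that had a window within 100 bases of the gene's outermost start, and Bub3, the member whose level fell least. Each is given 5′ to 3′ on the strand of the gene, from 110 bases before the start site through the first 20 transcribed bases. Capitals mark the CHR forms TTTGAA and TTCGAA and TTTAAA, and the CCAAT box, each in either orientation (TTCAAA and ATTGG on the other strand).
Cenpf: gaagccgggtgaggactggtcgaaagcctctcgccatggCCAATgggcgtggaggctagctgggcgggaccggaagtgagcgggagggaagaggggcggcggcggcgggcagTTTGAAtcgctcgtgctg
Hmmr: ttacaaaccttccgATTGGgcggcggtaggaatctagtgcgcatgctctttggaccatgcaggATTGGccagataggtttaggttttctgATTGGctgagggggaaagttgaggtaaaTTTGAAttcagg
Ccnb2: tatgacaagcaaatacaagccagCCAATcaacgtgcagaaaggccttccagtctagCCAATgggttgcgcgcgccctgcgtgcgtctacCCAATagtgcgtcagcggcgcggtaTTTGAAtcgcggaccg
Ube2c: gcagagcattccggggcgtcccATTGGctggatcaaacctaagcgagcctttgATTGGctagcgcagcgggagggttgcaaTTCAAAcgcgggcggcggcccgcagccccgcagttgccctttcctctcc
Ccnb1: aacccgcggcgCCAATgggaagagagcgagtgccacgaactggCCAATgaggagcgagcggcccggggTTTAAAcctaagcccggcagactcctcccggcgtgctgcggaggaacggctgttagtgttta
Bub3: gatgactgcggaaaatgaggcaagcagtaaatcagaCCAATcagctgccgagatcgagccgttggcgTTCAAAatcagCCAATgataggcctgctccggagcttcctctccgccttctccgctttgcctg
The windows lie at chr1:189688067-189688196 (minus strand), chr11:40733418-40733547 (minus strand), chr9:70421535-70421664 (minus strand), chr2:164769819-164769948 (plus strand), chr13:100786467-100786596 (minus strand) and chr7:131560260-131560389 (plus strand). The counts that follow hold for the printed bases only. Ccnb2 and Hmmr carry 3 CCAAT boxes each and 1 TTTGAA near the start site. Ccnb1 carries 2 CCAAT boxes and the TTTAAA form. Cenpf carries 1 CCAAT box and 1 TTTGAA. Ube2c and Bub3, at opposite ends of the range, both carry 2 CCAAT boxes and 1 TTTGAA.

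Over all 49 member windows, with both strands searched, TTTGAA was found in 36 (73.5%), against 12.3% of 10811 windows of the other genes tested and 17.9% of all 32851 windows. TTTGAA or TTCGAA lay within 50 bases of the start site in 65.3% of member windows and in 3.6% of those of the other genes tested. CCAAT was found in 75.5% against 37.5%, and 2 or more CCAAT boxes in 51.0% against 14.3%. A window with CCAAT and with TTTGAA or TTCGAA was found for 67.3% of member windows and 5.7% of the others. The E2F-type letters gave opposite shares, with TTCCCGC in 2.0% of member windows and 8.3% of the others, and TTGGCGC in 16.3% against 4.3%. These are matches of letters and were not tested as binding sites. The window of Pttg1 held none of these letters, but it lies 1482 bases from the outermost annotated start of that gene.

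Nearly the whole module was lower in NanoCa. Of 55 mitotic genes, 54 were lower and 1, the securin gene Pttg1, was higher (limma, Benjamini-Hochberg adjusted p under 0.05, over all 11116 genes tested). Among all genes tested, 49.7% were lower (5520 genes) and 21.7% higher (2409). With median-of-ratios scaling those counts became 3620 lower and 3717 higher, and among the members 53 were lower and 1 higher. A fall to 50% of the Mock level or less was found for 53 of the 55 members and for 9.04% of all genes tested. In 54 members both NanoCa libraries lay below both Mock libraries, as they did for 58.9% of all genes tested. The filter took the mean over all 4 libraries, so a gene could pass it through Mock alone. Cenpf, Nek2, Kif4, Espl1, Kif2c and Spc24 had means under 1 FPKM in NanoCa. With no filter, 54 members were again lower and 1 higher. The median log2 fold change of the members was -2.29 and that of all genes -0.17 (NanoCa minus Mock, of log2(FPKM + 1), where the added 1 shrinks the change of genes with low values). In these bulk libraries, fewer cells that express a gene and less RNA per cell cannot be told apart.

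**Figure D1:**
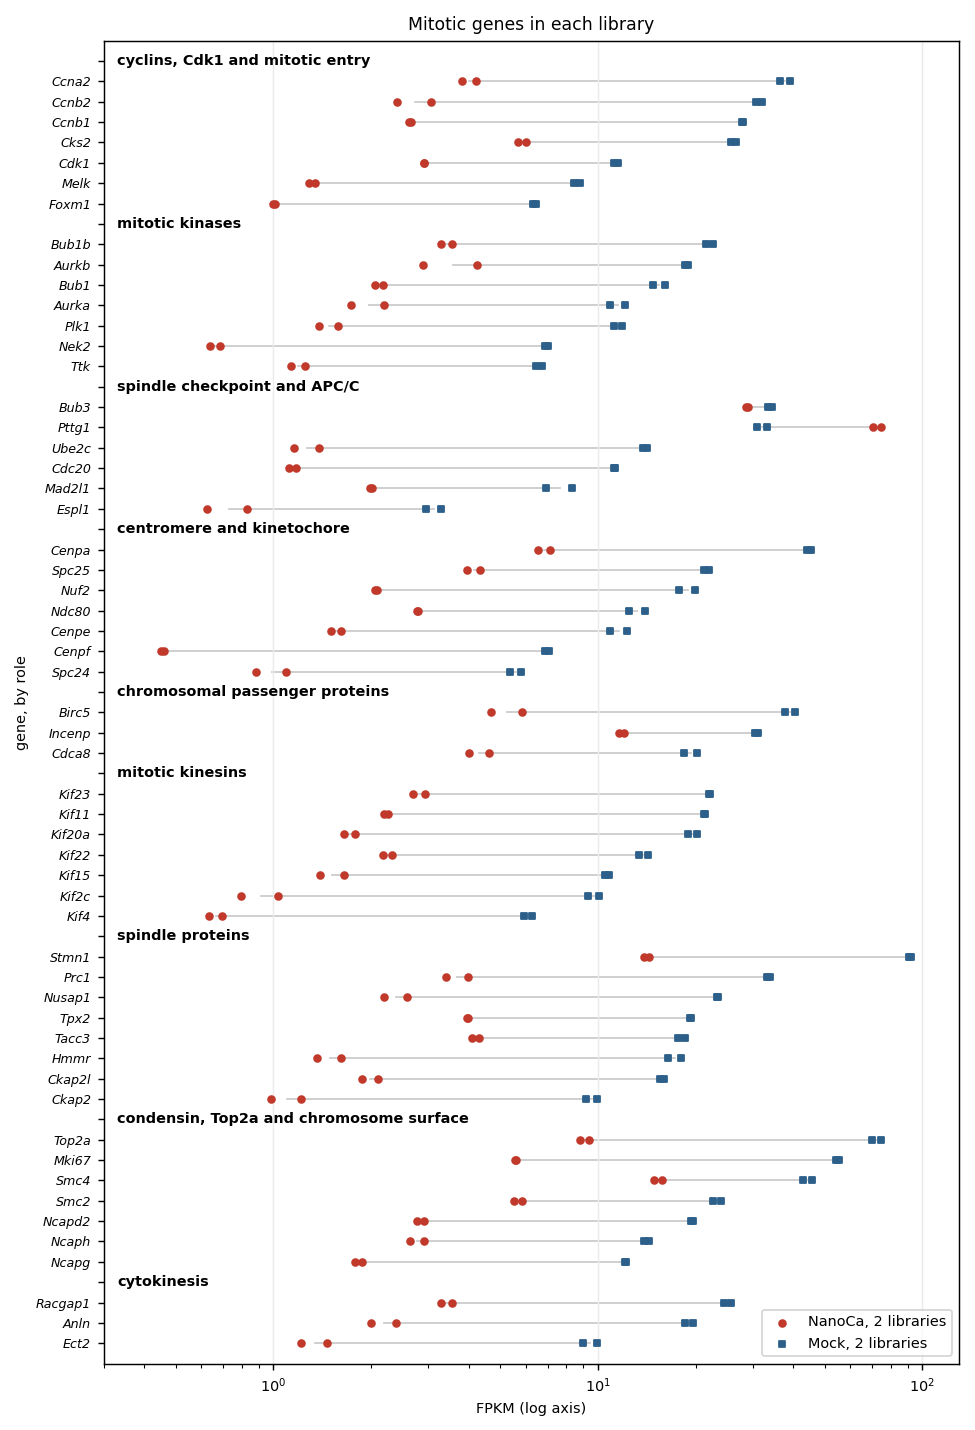
FPKM (log axis) of the 55 mitotic genes, grouped by role, with NanoCa libraries as red circles, Mock libraries as blue squares and a grey line between the group means. The 2 groups are separate in every row, Pttg1 is the one gene with NanoCa on the right, and Bub3 has the shortest line to the left.

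On the linear scale the members were left at a median of 14.3% of their Mock mean, where the median of all genes tested was 87.3%. At most 10% was left of 8 members, more than 10% and at most 20% of 34, and more than 20% and at most 50% of 11. The values were not all alike within counting error. The exact 95% interval of the ratio of reads, which covers counting error only, lay wholly below 14.3% for 20 members and wholly above it for 18. The level left showed little relation to abundance. Across the 55 genes, log2 Mock FPKM and log2 percent of Mock had a Pearson r of 0.14 and a Spearman rho of 0.02 (these genes share the same 4 libraries). Libraries of 1 group were close to each other, with a median SD of 5.13% of the mean in NanoCa and 2.95% in Mock. Aurkb varied most in NanoCa (26.4%) and Mad2l1 most in Mock (12.9%).

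**Figure D2:**
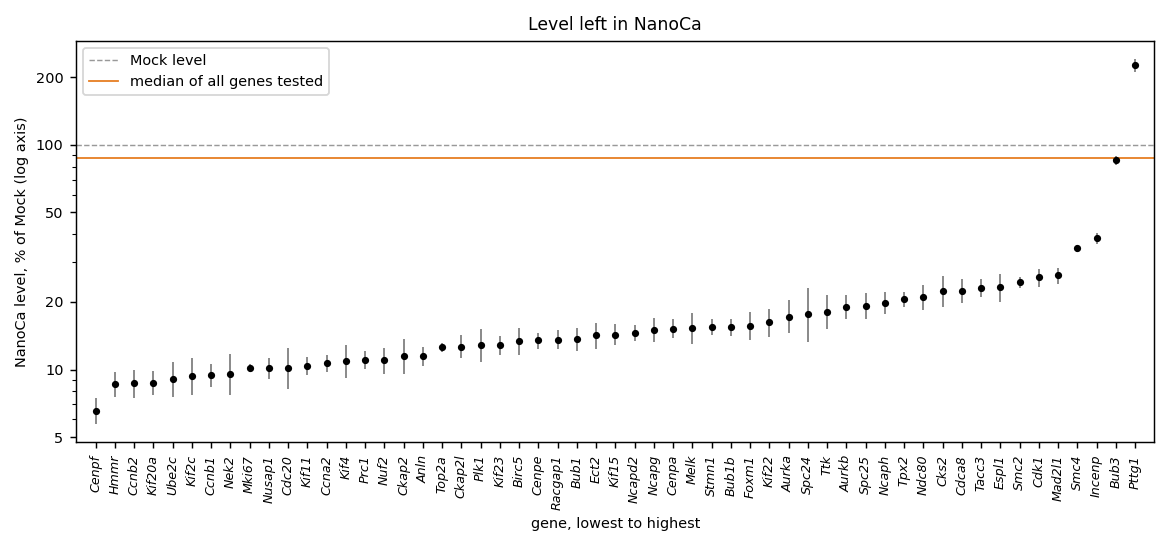
Mean NanoCa FPKM of each mitotic gene as a percentage of its Mock mean (log axis), with exact 95% intervals from read counts. Most genes lie between 8.60% and 26.3%, Cenpf is lowest at 6.53%, and Bub3 (85.3%) and Pttg1 (226%) stand above the others, with Bub3 beside the median of all genes tested (87.3%).

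All 7 genes of the cyclin and Cdk1 group fell, to between 8.71% and 25.7% of Mock. Ccnb2 (ENSMUSG00000032218), a B-type cyclin, was at 2.40 and 3.07 FPKM in NanoCa and 32.1 and 30.6 in Mock (log2 fold change -3.12, SE 0.090, limma adjusted p = 2.21e-06), the largest fall of the module on this scale. Ccnb1, the B-type cyclin that drives entry into mitosis, was at 2.66 and 2.61 against 27.9 and 27.8 FPKM (-2.99, SE 0.047, adjusted p = 6.82e-07). Ccna2, the cyclin of S phase and early mitosis, was close behind at 10.7% of Mock. Their partner kinase Cdk1 fell least in this group, from 11.5 and 11.2 FPKM in Mock to 2.91 in both NanoCa libraries, or 25.7% (-1.66, SE 0.053, adjusted p = 2.93e-06). Its interval of 23.4% to 28.0% lies above those of Ccnb1 (8.40% to 10.6%) and Ccnb2 (7.46% to 10.0%), so the kinase kept a larger share of its Mock level than the cyclins that activate it. Foxm1, the transcription factor that binds late cell cycle promoters together with MuvB, was left at 15.7%, and the kinase gene Melk and the Cdk1-binding subunit Cks2 at 15.3% and 22.3%.

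The 7 mitotic kinase genes lay between 9.52% (Nek2, of centrosome separation) and 19.0% (Aurkb). The intervals of these 2 genes, 7.70% to 11.7% and 16.8% to 21.5%, did not overlap, but they leave out the spread between libraries. Bub1, a checkpoint kinase at the kinetochore, went from 16.1 and 14.8 FPKM in Mock to 2.05 and 2.17 in NanoCa (-2.40, SE 0.063, adjusted p = 1.76e-06). Bub1b, which encodes the checkpoint protein BubR1, was at 3.28 and 3.55 against 22.6 and 21.6 FPKM (-2.39, SE 0.055, adjusted p = 1.28e-06). Ttk, the Mps1 kinase that starts checkpoint signalling, showed the smallest log2 change, with 1.13 and 1.25 against 6.46 and 6.71 FPKM (-1.79, SE 0.070, adjusted p = 5.51e-06). Plk1, the polo kinase of mitotic entry and centrosome maturation, was left at 12.8%. The 2 Aurora kinases were left at 17.2% (Aurka, of the spindle poles) and 19.0% (Aurkb, of the inner centromere), with overlapping intervals. The NanoCa libraries of Aurkb were further apart than those of other members, at 4.23 and 2.90 FPKM, and both lay well below 19.0 and 18.6 in Mock.

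The 6 genes of the checkpoint and the APC/C were the most uneven group, with 5 lower and 1 higher and levels left from 9.07% to 226%. Ube2c, the ubiquitin-conjugating enzyme that works with the APC/C, fell from 13.8 and 14.2 FPKM to 1.16 and 1.38 (-2.73, SE 0.070, adjusted p = 1.63e-06). Cdc20, the activator of the APC/C, fell from 11.3 and 11.2 to 1.12 and 1.17 FPKM (-2.52, SE 0.059, adjusted p = 1.32e-06). The checkpoint protein gene Mad2l1 was left at 26.3%. Espl1, which encodes separase, the protease that cuts cohesin, had few transcripts even in Mock, with 3.29 and 2.95 FPKM there and 0.626 and 0.830 in NanoCa, or 23.4% (-1.25, SE 0.098, adjusted p = 8.57e-05).

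Bub3 (ENSMUSG00000066979), the WD-repeat protein that brings Bub1 and BubR1 to the kinetochore, hardly followed its partners. It was at 28.7 and 29.1 FPKM in NanoCa and 33.4 and 34.4 in Mock, which is 85.3% (interval 81.5% to 89.5%), where Bub1 was left at 13.7% and Bub1b at 15.5%. The groups do not overlap, and the difference passed the test (-0.22, SE 0.039, adjusted p = 0.00280). It is close to the median of all genes, and with median-of-ratios scaling it was -0.03 (adjusted p = 0.483, where the range over all alternatives was 1.80e-05 to 0.483).

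Pttg1 (ENSMUSG00000020415) encodes securin, which holds separase inactive until anaphase. It was the single member that rose, from 33.1 and 31.0 FPKM in Mock to 70.4 and 74.5 in NanoCa, or 226% (interval 211% to 241%). Both NanoCa libraries lay above both Mock libraries, on 1251 and 1258 reads against 763 and 620 (log2 fold change 1.15, SE 0.050, adjusted p = 8.27e-06). Its direction held in every alternative, with log2 fold changes of 1.11 to 1.34. In Mock it ranked 10 among the 55 members by FPKM and in NanoCa it ranked 1. It made up 2.76% and 2.67% of the summed FPKM of the module in Mock and 25.6% and 26.8% in NanoCa, while that sum went from 1200 and 1163 to 275 and 278. Securin and separase transcripts thus moved in opposite directions in the same libraries.

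The 7 centromere and kinetochore genes fell, to between 6.53% and 21.1%. Cenpf (ENSMUSG00000026605), a large protein of the outer kinetochore, had the lowest level left of the module, 6.53% (interval 5.72% to 7.46%), with 0.461 and 0.449 FPKM in NanoCa and 6.87 and 7.05 in Mock. On the log2(FPKM + 1) scale this is -2.45, a smaller figure than that of more abundant genes because of the pseudocount. Nuf2, a subunit of the Ndc80 complex that binds microtubules, fell from 19.9 and 17.8 to 2.08 and 2.06 FPKM (-2.69, SE 0.066, adjusted p = 1.49e-06). Cenpa, the histone H3 variant that marks centromeres, fell from 45.5 and 44.2 to 6.54 and 7.12 (-2.55, SE 0.052, adjusted p = 1.03e-06). Spc24, the least abundant subunit of the Ndc80 complex, went from 5.81 and 5.35 to 0.885 and 1.09 FPKM (-1.73, SE 0.085, adjusted p = 1.36e-05). It rests on 29 and 34 reads in NanoCa, the fewest of the module, and its interval of 13.3% to 23.0% is correspondingly wide. Cenpe, the kinesin of the kinetochore, was left at 13.5%.

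Of the chromosomal passenger proteins, which correct wrong attachments together with Aurora B, all 3 fell but to different degrees. Birc5 (survivin) was at 4.67 and 5.84 FPKM against 40.4 and 37.7 in Mock (-2.69, SE 0.093, adjusted p = 3.78e-06), and Cdca8 (borealin) at 4.00 and 4.61 against 18.4 and 20.2 (-1.94, SE 0.077, adjusted p = 5.91e-06). Incenp, the scaffold of the complex, went from 30.5 and 31.2 to 11.6 and 12.0 FPKM and kept 38.3% (-1.31, SE 0.043, adjusted p = 3.19e-06). Its interval, 36.3% to 40.4%, is above that of every other member except Bub3 and Pttg1.

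Mitotic kinesins, the motors that move chromosomes and spindle microtubules, fell evenly, with all 7 between 8.74% and 16.2%. Kif20a, a kinesin of the central spindle, was at 1.78 and 1.65 FPKM in NanoCa and 20.2 and 19.0 in Mock (-2.92, SE 0.060, adjusted p = 1.03e-06). It shares 29.3% of its annotated exonic bases with Cdc23 on the opposite strand, and since it is not stated whether counting used strand, reads of the pair cannot be told apart there. Kif11, the motor that separates spindle poles, was at 2.19 and 2.26 against 21.4 and 21.3 FPKM (-2.80, SE 0.050, adjusted p = 8.68e-07). Kif4, a chromosome-bound kinesin, had the smallest log2 change, from 6.25 and 5.94 to 0.694 and 0.634 FPKM (-2.09, SE 0.073, adjusted p = 3.90e-06). On the linear scale it did not stand apart, with 10.9% left. It lies on the X chromosome and shares 15.1% of its exonic bases with Pdzd11 on the opposite strand. Kif2c, which takes microtubules apart, Kif23 of the midzone, Kif15 and Kif22 were left at 9.39%, 12.8%, 14.3% and 16.2%.

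All 8 spindle genes fell, to between 8.60% and 23.1%. Hmmr, a spindle pole protein and hyaluronan receptor, went from 18.0 and 16.5 to 1.61 and 1.36 FPKM (-2.88, SE 0.075, adjusted p = 1.73e-06). Prc1, which bundles microtubules of the midzone, went from 33.8 and 33.2 to 3.98 and 3.41 (-2.88, SE 0.067, adjusted p = 1.29e-06). Tacc3, a stabiliser of microtubules between kinetochore and pole, fell least, from 17.7 and 18.6 to 4.10 and 4.30 FPKM (-1.88, SE 0.054, adjusted p = 2.17e-06). Stmn1, a microtubule destabiliser that is not specific to mitosis, was the most abundant member in Mock at 92.0 and 90.8 FPKM and was left at 15.5%. Tpx2, an activator of Aurora A, was left at 20.5%, and Nusap1, a microtubule-bundling protein, at 10.2%.

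Genes of chromosome condensation fell in all 7 cases, to between 10.2% and 34.6%. Mki67 (ENSMUSG00000031004), the Ki-67 antigen that coats mitotic chromosomes, fell from 55.2 and 54.1 FPKM to 5.54 and 5.58 (-3.08, SE 0.041, adjusted p = 6.82e-07). Top2a, the topoisomerase that untangles sister chromatids, was at 9.36 and 8.79 against 74.7 and 69.7 FPKM (-2.86, SE 0.053, adjusted p = 8.68e-07). Smc4, a core ATPase of condensin, kept the most, with 15.8 and 14.9 FPKM against 45.7 and 42.8, or 34.6% (-1.47, SE 0.051, adjusted p = 3.91e-06). Its partner Smc2 was left at 24.4% and the condensin I subunits Ncapd2, Ncapg and Ncaph at 14.5%, 15% and 19.7%.

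The 3 cytokinesis genes fell alike. Anln (anillin, a scaffold of the contractile ring) went from 19.7 and 18.5 FPKM to 2.38 and 2.0 (-2.66, SE 0.074, adjusted p = 2.08e-06). Racgap1, which with Kif23 forms centralspindlin, went from 25.7 and 24.4 to 3.54 and 3.29 (-2.56, SE 0.055, adjusted p = 1.06e-06). Ect2, the exchange factor that activates RhoA at the cleavage site, went from 9.95 and 8.98 to 1.22 and 1.46 (-2.16, SE 0.082, adjusted p = 5.17e-06). Their levels left of 11.5%, 13.6% and 14.2% had overlapping intervals.

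Because the subunits of a complex fell to different degrees, the make-up of its transcripts differed between groups. These shares of summed FPKM are given as values with no test, since the smallest two-sided p that an exact permutation test of 2 libraries against 2 allows is 0.333. In condensin I, Smc4 made up 39.6% and 38.5% of the sum in Mock and 53.9% and 54.0% in NanoCa. Smc2 and Smc4 are shared with condensin II, so this sum is not of condensin I alone. Ncapd2 went the other way, from 17.0% and 17.4% to 9.96% and 10.0%. For the chromosomal passenger complex, Incenp made up 28.2% and 29.0% in Mock and 47.3% in both NanoCa libraries, and Birc5 37.3% and 35.0% against 19.1% and 23.0%. In the Ndc80 complex, Nuf2 went from 32.2% and 31.3% to 20.7% and 20.8%, and Ndc80 from 22.7% and 22.0% to 27.6% and 28.2%. The Spc24 shares overlapped between groups, at 9.42% and 9.41% in Mock and 8.79% and 11% in NanoCa. Those of Cdca8 overlapped too, at 17.0% and 18.8% in Mock and 16.3% and 18.2% in NanoCa. Aurkb was at 17.5% and 17.3% in Mock and 17.3% and 11.4% in NanoCa. Smc2 shares changed little, from 20.7% and 20.3% to 19.8% and 19.9%.

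**Figure D3:**
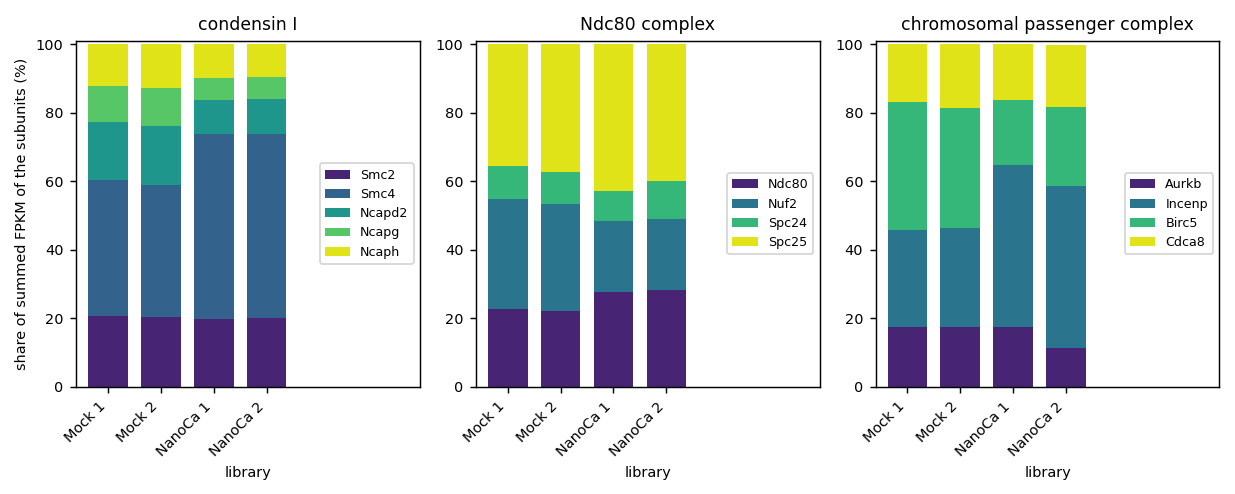
Share of each subunit in the summed FPKM of 3 complexes (%), one stacked bar per library. The NanoCa bars hold more Smc4 (53.9% and 54.0%) and more Incenp (47.3%) than the Mock bars (39.6% and 38.5% for Smc4, 28.2% and 29.0% for Incenp), and less Nuf2.

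The fall reached beyond the 55 genes. Of 132 other genes of mitosis and its regulation, in 9 lists, 129 were tested. The lists include 13 genes of the DREAM and MuvB transcription complex. Of the 129, 114 were lower, 1 higher and 14 did not pass the test (103 lower and 8 higher with median-of-ratios scaling). Among all genes tested, 49.7% were lower and 21.7% higher. At 50% of Mock or less were 62, and the median log2 fold change was -0.82. The lists differed in how far they followed. In each, the genes named first are those with the largest falls on the log2(FPKM + 1) scale, which need not have the lowest percentage of Mock. Other kinesin and spindle genes were lower in 24 of 24 cases (median -1.45), among them Aspm, a spindle pole protein at -2.45 and 5.88% (0.435 and 0.338 against 6.71 and 6.45 FPKM), and Spag5 at -2.30 and 12.4%. Other kinetochore and checkpoint genes were lower in 14 of 16 (median -1.21), among them Knl1, the scaffold that recruits Bub1 and Bub3, at -2.42 and 10.8%, and Kntc1 at -1.89 and 13.5%. Zwint, which binds Knl1, was at 34.9 and 36.4 FPKM in NanoCa and 34.9 and 34.4 in Mock and did not pass the test (0.04, adjusted p = 0.416). With median-of-ratios scaling Zwint passed it as higher (0.23, adjusted p = 0.00386; 0.00386 to 0.884 over the alternatives). The Knl1 partners Bub3 and Zwint were thus at 85.3% and 103% of Mock while Knl1 was at 10.8%. The inner centromere network was lower in 18 of 19 (median -1.09), with Cenpq at 19.2% and Cenpi at 16.5%.

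The counts of the next lists also stand beside 49.7% lower and 21.7% higher among all genes tested. Among entry genes, 13 of 15 were lower and 1 higher (median -0.90). The phosphatase Cdc25c, which activates Cdk1, was left at 8.43% (0.321 and 0.248 against 3.42 and 3.34 FPKM), and the kinase Mastl (Greatwall) at 16.9%. Ensa, a substrate through which Mastl restrains the phosphatase PP2A, was the one higher gene, at 206 FPKM in both NanoCa libraries and 166 and 161 in Mock (0.33, SE 0.038, adjusted p = 0.000402). Other cytokinesis genes were lower in 9 of 10 (median -0.93), among them Cep55 (-2.59, 11.3%) and Pbk (-1.86, 20.4%). Sept7 was at 99.2% (-0.01, adjusted p = 0.814), and it passed the test as higher with median-of-ratios scaling (0.18, adjusted p = 0.0128) and as lower after quantile normalization (-0.15, adjusted p = 0.0244). Cohesin genes were lower in 13 of 14 (median -0.68), with the acetyltransferase Esco2 and the centromere protector Sgo2a both at 13.7%. The other condensin genes, of condensin II, fell less, with Ncapd3 at 35.0%, Ncapg2 at 70.7% and Ncaph2 at 71.5%.

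The APC/C list, which holds its subunits with the activator Fzr1 and the ubiquitin-conjugating enzyme Ube2s, was close to the genes at large. Of 16 genes 11 were lower, with a median of -0.29 against -0.17 for all genes, of which 49.7% were lower, and none reached 50% of Mock. With median-of-ratios scaling 5 of the 16 were lower and 1 higher, and 3620 of all 11116 genes were lower. The most changed of the list were Cdc23 at 55.7% (10.7 and 11.7 against 19.2 and 20.9 FPKM) and Anapc1 at 63.1%, where Ube2c and Cdc20 were left at 9.07% and 10.2%. Cdc23 is the gene that overlaps Kif20a. Among DREAM and MuvB genes, 9 of 12 were lower (median -0.57), with the dimerisation partner Tfdp2 at 33.9% and the B-Myb gene Mybl2 at 29.0%. The pocket protein genes Rbl1 and Rbl2, which belong to the repressing form of DREAM, were lower, at 59.6% (-0.70, adjusted p = 8.21e-05) and 51.7% (-0.90, adjusted p = 1.87e-05), and were named after their values were seen. The genes of the list that were not lower, Lin37, E2f4 and E2f5, were at 116%, 112% and 115% and did not pass the test (adjusted p = 0.0919, 0.0909 and 0.170), and all 3 passed it as higher under either scaling alternative (median-of-ratios, quantile).

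**Figure D4:**
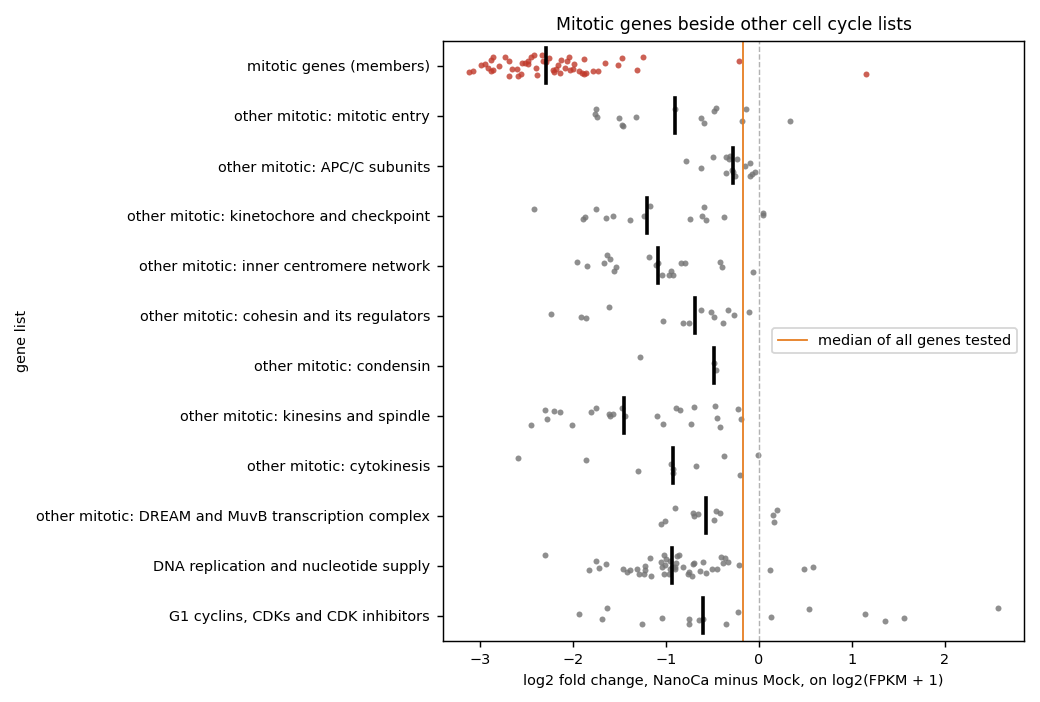
Log2 fold changes, NanoCa minus Mock on log2(FPKM + 1), of the tested genes of each list, 1 point per gene with a black bar at the median of the list. The 55 mitotic genes (red) have their median at -2.29. The other lists of mitosis and its regulation, DREAM and MuvB included, have theirs between -0.29 and -1.45. DNA replication is at -0.93 and the G1 list at -0.60, and the orange line marks the median of all genes tested at -0.17.

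Genes of the preceding phases moved less or in both directions. Of 50 genes of DNA replication and nucleotide supply, 46 were lower and 2 higher, with a median of -0.93 and 29 at 50% of Mock or less. The ribonucleotide reductase subunits Rrm2 and Rrm1 were left at 17.9% and 26.3%. Timeless, of the replication fork protection complex, and Pcna, the polymerase clamp, were the 2 higher ones, at 166% and 140%. Pcna was at 189 and 180 FPKM in NanoCa and 136 and 129 in Mock. Of 17 tested G1 cyclins, CDKs and CDK inhibitors, 11 were lower and 5 higher (median -0.60). Among all genes tested, 49.7% were lower and 21.7% higher. The CDK inhibitor gene Cdkn2c was left at 17.9% and E2f2 at 25.6%, while cyclin D1 (Ccnd1) rose from 1.83 and 1.89 FPKM to 15.7 and 16.2 (2.57, SE 0.054, adjusted p = 1.06e-06) and cyclin D2 (Ccnd2) was at 374%. Cdkn1a, which encodes the CDK inhibitor p21 and was named after its values were seen, rose from 120 and 127 to 266 and 282 FPKM (1.14, SE 0.049, adjusted p = 8.29e-06). The inhibitor genes moved in both directions. Cdkn1c was higher, at 385% of Mock, and Cdkn1b and Cdkn2d were lower, at 62.1% and 62.9%, as was Cdkn2c. Cdkn2a and Cdkn2b were under the filter.

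Markers of other marrow cells also differed between the groups. The counts of these short lists stand beside 49.7% lower and 21.7% higher among all genes tested. Of 8 tested genes (11 in the list) of neutrophils and their precursors 7 were lower in NanoCa, and the list's summed FPKM was 455 and 447 in NanoCa and 624 and 848 in Mock. Much of that sum was Chil3, at 404 and 384 against 394 and 427 FPKM, a gene that macrophages express too. S100a9 was at 1.85 and 3.72 against 115 and 225 FPKM, and S100a8 fell less, to 47.8 and 58.0 against 94.1 and 154. The precursor gene Elane was at 0.169 and 0.134 against 1.18 and 3.01, on 4 and 3 reads against 36 and 80. For these genes the Mock libraries differed from each other far more than for the mitotic genes. Blood progenitor markers were lower in 3 of 4 tested cases (summed FPKM 60.7 and 60.0 against 115 and 118), with Kit at 1.24 and 1.17 against 3.51 and 5.35. Most of the progenitor sum was Cd93, at 56.0 and 55.4 against 106 and 107 FPKM, which myeloid cells express too. Mast cell and basophil markers were lower in 3 of 3 tested cases (1.74 and 1.86 against 10.5 and 18.4). Their part in the fall of the mitotic genes was not tested. Macrophage and monocyte markers were higher in 8 of 11 cases and lower in 2 (summed FPKM 3068 and 3271 against 2102 and 2144). The 2 lower ones were Mertk, at 81.9% of Mock, and Ccr2, at 16.3%. Ccr2 was at 70.7 and 68.6 FPKM in NanoCa and 417 and 436 in Mock, against the direction of the sum. Of the fibroblast markers, 4 of 4 tested were higher (40.3 and 38.6 against 7.52 and 7.70). Of the dendritic cell markers, 7 of 9 tested were lower and 2 higher (1379 and 1467 against 2197 and 2182). The 2 higher ones were Irf8, at 114% of Mock, and Ccr7, at 165%. Most of the dendritic cell sum was Cd74, at 777 and 821 FPKM in NanoCa and 1253 and 1240 in Mock. Itgax (CD11c) was at 73.0 and 72.7 FPKM in NanoCa and 119 and 115 in Mock, but Zbtb46, a transcription factor that defines conventional dendritic cells, was low in both, at 0.495 and 0.529 against 0.526 and 0.635. Erythroid, B cell and T and NK cell markers had no tested gene, with list sums of at most 1.04 FPKM in any library. Hba-a2, Alas2 and Car1 (erythroid), Ncr1 (NK cell) and Mcpt4 (mast cell) were listed at 0 in all 4 libraries.

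Some members share sequence with other genes. Ube2c overlaps Tnnc2 over 22.8% of its exonic bases, but Tnnc2 was listed at 0 in NanoCa and at 0.026 FPKM in Mock. Ccna2 shares 12.5% with Exosc9 on the opposite strand, whose mean was 18.6 FPKM in NanoCa and 22.0 in Mock, so part of the Ccna2 level in NanoCa cannot be assigned. Ncapg shares 13.4% with Lcorl, whose mean was 5.94 FPKM in NanoCa and 7.36 in Mock. Prc1 shares 11.1% with Rccd1, which was less abundant than Prc1, at 0.921 and 1.161 FPKM. Tacc3 (8.1%, with Tmem129), Cdca8 (4.5%, with 9930104L06Rik) and Cdc20 (2.8%, with Elovl1) share fewer bases, with neighbours that were more abundant than the member in NanoCa. Processed pseudogenes close in sequence to Ccnb1, Cks2, Mad2l1 and Mki67 were at 0.108 FPKM or less. The copy of Stmn1 (Gm11223) had means of 0.329 FPKM in NanoCa and 1.03 in Mock, well under Stmn1 itself.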

How the data were processed

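Per the labels' protocols, libraries of BMDC RNA were prepared with the SMARTER mRNA kit. The authors deposited FPKM values per gene. Per the submitters' processing notes they used GRCm39. Aligner, counter and strand use were not given in the sources used here. Genome context came from GENCODE and RefSeq of GRCm38, so gene coordinates are printed for RefSeq promoter windows only.

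Columns of replicate 3 equalled 1.0011 (NanoCa) and 1.001876 (Mock) times the mean of replicates 1 and 2 and were left out, which departs from a design of 3 against 3. Genes reaching a mean of 1 FPKM were tested on log2(FPKM + 1) with limma 3.58.1 (R 4.3.3, trend, two-sided, Benjamini-Hochberg adjustment over 11116 genes, threshold 0.05). Whole reads were recovered from FPKM steps (tolerance 1e-06) for exact 95% intervals, which cover counting error only. Both steps were tested on simulated data. Sequence copies were sought with blastn 2.17.0.

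The members and lists were chosen with earlier results of these data known. Of each role group, the 2 largest and the smallest log2 changes, and any member higher or not called, were named with full statistics. Of the other lists, the 2 largest falls and rises past the test on the log2 scale were named. The lowest percentage (Cenpf) and other genes were named after their values were seen.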

Additional observations from a re-analysis of the deposited data

How the results depend on the processing

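Of 706 values of single mitotic genes under 13 alternatives, 705 kept their direction and their side of the threshold. The exception was Bub3 with median-of-ratios scaling (-0.03, adjusted p = 0.483). No mitotic gene changed direction, and the largest adjusted p of the other members was 0.00328. The median of the mitotic genes, -2.29, was -2.73 with a pseudocount of 0.1, -2.80 with a pseudocount of 0.01, -2.81 with limma-voom on the recovered reads, -2.39 over the 46 members with a mean FPKM of 5 or more, -2.15 with median-of-ratios scaling and -2.10 after quantile normalization. The filter at 5 FPKM also took the mean over all 4 libraries, so Mock alone could carry a member through it. Of all genes tested, 3620 were lower and 3717 higher with median-of-ratios scaling, which shifts the median of all genes by 0.17. Leaving out 1 library at a time gave medians of -2.25 to -2.30 and left 54 members lower and 1 higher. For genes of the other lists the same alternatives were added after seeing the data, and Sept7, not called, passed the test as higher with median-of-ratios scaling (0.18, adjusted p = 0.0128) and as lower after quantile normalization (-0.15, adjusted p = 0.0244), and lay between -0.04 and 0.02 when 1 library was left out. The cause was not tested.

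With the replicate number as a block, 54 members were lower and 1 higher, and 5691 of all genes were lower and 2538 higher. The deviations of same-numbered libraries had a correlation of 0.133 over 11116 genes with only 2 pairs. The labels do not say that the numbers pair the libraries, and 2 pairs do not settle it. Depth limits the rarest members most, down to 63 reads over both NanoCa libraries (Spc24).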
